A study of Mus musculus with 18 samples.

Results

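The cytochrome P450 genes of families 1 to 4 were followed in livers of mice injured with carbon tetrachloride. Genes were taken by symbol, a Cyp followed by a family number from 1 to 4, a subfamily letter and a gene number, and were kept at 1 CPM (a gene's count divided by its library's total and scaled to a common depth) or more in at least 3 libraries. Of 34937 genes counted, 75 had such a symbol and 59 passed, 3 of them in family 1, 35 in family 2, 7 in family 3 and 14 in family 4, in 19 subfamilies. The 16 that did not pass reached at most 0.885 CPM in any library, among them Cyp2b9 and Cyp2b13, with maxima of 0.087 and 0.492 CPM. Just inside the rule were Cyp2g1, at 1 CPM or more in 7 libraries, and Cyp2b10, in 10 libraries, while 53 members passed in all 18. Symbols that end in a further letter, such as Cyp3a41a and Cyp4a12a, were outside the rule.

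The 18 libraries came from livers of 18 mice, 3 in each of 6 groups, and all mice had received 0.5 µL of carbon tetrachloride per g of body weight intraperitoneally. MycER joins the transcription factor MYC to the part of the estrogen receptor that binds tamoxifen, and a daily intraperitoneal dose of 1 mg tamoxifen switched it on. Group 12 was sampled 12 days after injury with MycER not activated, and group 12ON at 12 days with MycER activated. Groups 1OFF, 2OFF, 3OFF and 7OFF are labelled as 1, 2, 3 and 7 days after injury with no activation. The labels leave unsaid whether MycER had been active in those mice before, whether group 12 received tamoxifen, which promoter and cells drive MycER, and the strain, age and sex of the mice. The design text names 12ON against 12, and each OFF group against 12ON, as its comparisons.

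P450 enzymes of families 1 to 3 sit in the endoplasmic reticulum, where they oxidise drugs, toxins and steroids with electrons passed on by P450 reductase, and family 4 members mostly hydroxylate fatty acids and eicosanoids. Hepatocytes around the central vein carry the most of many of these enzymes. Cyp2e1 turns carbon tetrachloride into the radical that injures those cells, so that its level bears on how an animal handles the toxin.

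Gene counts per library ran from 23057899 to 75276898. All 5 hepatocyte markers (Alb, Apoa1, Ttr, Hnf4a and Serpina1b) were present in every group, with summed levels of 102204 to 111761 CPM in group 12, between 27168 and 33949 CPM in 12ON, between 36240 and 41667 CPM in 1OFF and 2OFF together, between 48827 and 76395 CPM in 3OFF and between 63452 and 83622 CPM in 7OFF. Xist, transcribed from the inactive X chromosome of females, stood above 100 CPM in 12 replicate 3, 12ON replicate 2, 2OFF replicate 1, 3OFF replicate 3 and 7OFF replicate 3, and no 1OFF library had it. Mitochondrial genes took 4.80% to 5.25% of a library's counts in group 12, between 6.42% and 7.11% in 12ON, and between 5.54% and 6.19% in 7OFF. A difference is called where edgeR's quasi-likelihood test gave an adjusted p under 0.05 over 17789 genes. Levels below are normalised CPM with SD over 3 mice, and differences are log2 fold changes with their standard errors.

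Most P450 genes were lower in 12ON livers than in group 12. Of the 59 members, 35 were called lower and 6 higher, where 22.6% of all genes tested were called lower and 24% higher, and 32 of the 35 were lower by at least 2-fold, against 8.15% of all genes. The median difference of the members was -1.09 and that of all genes -0.00. Together the members gave 1.10% ± 0.123 of all counts in group 12 and 0.765% ± 0.0768 in 12ON (SD, n = 3). By subfamily, 10 of 13 Cyp2c, 6 of 8 Cyp2d, 3 of 4 Cyp2a, both Cyp1a, 4 of 7 Cyp4f and 2 of 4 Cyp4a genes were lower, and the 6 that were higher were Cyp2c55, Cyp2d9, Cyp2f2, Cyp3a25, Cyp3a57 and Cyp3a59. In whole liver, fewer cells of a type and less RNA per cell cannot be told apart. Since the labels leave unsaid whether group 12 received tamoxifen, the drug and MycER activation cannot be told apart in 12ON against 12 either. The mitochondrial share of the counts was higher in every 12ON library than in any library of group 12, and with a term for it 23 members were lower and 1 higher, among 1788 and 2327 of all genes, which without the term had been 4029 and 4269. The members called in none of the 10 comparisons made were Cyp1b1, Cyp2t4, Cyp3a11, Cyp3a13, Cyp4a14, Cyp4f16 and Cyp4f37.

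Markers of other liver cells moved with the same contrast. All 5 cholangiocyte markers were higher in 12ON, from a summed 32.1 to 93.4 CPM in group 12 to 183 to 196 CPM, and 3 of 5 stellate cell markers were higher, from 338 to 418 CPM to 664 to 724 CPM. All 5 sinusoidal endothelium markers were lower, from 259 to 292 CPM to 128 to 139 CPM, as were 4 of 5 Kupffer cell markers, from 911 to 1401 CPM to 456 to 686 CPM, and 2 of 5 lymphocyte markers, from 45.0 to 45.6 CPM to 27.2 to 34.7 CPM. None of the 5 neutrophil markers was called, at 163 to 225 CPM in group 12 and 168 to 231 CPM in 12ON. Of 5 markers of kidney, intestine and lung, 3 were at 0 in group 12 and 2 in 12ON, and both of the 2 that could be tested, Vil1 and Fabp2, were higher in 12ON. No marker of the other lists was at 0 in a whole group, and the part of these cells in the P450 differences was not tested.

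The OFF groups were then set against 12ON. They differ from it in the day after injury and, as labelled, in MycER activation by tamoxifen. The day, the drug and MycER cannot be told apart here. At 3 days 27 members were higher and 2 lower than in 12ON, where 15.3% of all genes were called higher and 17% lower, and at 7 days 37 were higher and 3 lower, against 21.4% and 22.7%. At 1 and 2 days no member was called in either direction, where 0.00562% and 0% of all genes were. At an unadjusted p under 0.05, 18 members passed in 1OFF and 16 in 2OFF, among 2568 and 3039 of all genes. DESeq2 called 2 members higher and 1 lower in 1OFF, among 125 and 389 of all genes, and 4 higher and 2 lower in 2OFF, among 272 and 651. The median difference of the members from 12ON was 0.35 in 1OFF, 0.23 in 2OFF, 0.91 in 3OFF and 1.13 in 7OFF, with medians of all genes between 0.00 and 0.01. Markers of other cells moved with these comparisons too. Against 12ON all 5 hepatocyte markers were higher and all 5 cholangiocyte markers lower in both 3OFF and 7OFF, to a summed 69.2 to 82.4 CPM and 49.4 to 77.8 CPM for the latter. Endothelium markers were higher, 5 in 3OFF and 4 in 7OFF (205 to 239.5 CPM and 193 to 236 CPM), as were 2 of 5 lymphocyte markers in each (44.9 to 48.2 CPM and 20.8 to 35.4 CPM), and 3 of 5 stellate cell markers were lower in each (437 to 605 CPM and 328 to 591 CPM). The summed lymphocyte level of 7OFF took in the 27.2 to 34.7 CPM of 12ON, so the sum itself was not higher there. Of the 5 Kupffer cell markers 1 was higher in 3OFF (715 to 897 CPM) and 1 lower in 7OFF (458 to 552 CPM), and no neutrophil marker was called (82.8 to 454 CPM and 98.8 to 345 CPM). Of the 2 tested markers of kidney, intestine and lung 1 was lower in each (23.3 to 33.7 CPM and 17.9 to 38.2 CPM), and 3 of that list's 5 were at 0 in 3OFF and 1 in 7OFF. Their part in the P450 differences was not tested. Without 12ON replicate 2 the number of members higher in 3OFF was 17, among 1528 of all genes, and in the 13 libraries of low Xist alone it was 15, among 763, against 2726 of all genes with every library.

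Against group 12, the P450 genes were mostly lower in 1OFF and 2OFF, and few were called in 7OFF. In 1OFF 30 members were lower and 8 higher, where 16.3% and 17.1% of all genes were, and in 2OFF 29 were lower and 6 higher, where 17% and 18.1% were. In 3OFF 14 were lower and 6 higher, against 7.95% and 9.47% of all genes, and in 7OFF 3 were lower and 2 higher, against 3.31% and 2.47%. The 7OFF livers had 31 members above 1OFF and 2 below, against 14.8% and 15.8% of all genes. In both 1OFF and 2OFF all 5 hepatocyte markers were lower than in group 12, as were 4 of 5 Kupffer cell markers (526 to 629 CPM and 407 to 680.0 CPM), 3 of 5 endothelium markers (169 to 176 CPM and 141 to 201 CPM) and 2 of 5 lymphocyte markers (35.2 to 46.1 CPM and 31.1 to 49.0 CPM). The summed lymphocyte levels of 1OFF and 2OFF took in the 45.0 to 45.6 CPM of group 12. In both, 3 of 5 stellate cell markers were higher (574 to 845 CPM and 625 to 729 CPM), as were 4 cholangiocyte markers in 1OFF (114 to 136 CPM) and 2 in 2OFF (61.8 to 116 CPM). No neutrophil marker was called (129 to 296 CPM and 153 to 273 CPM), and 1 of the 2 tested markers of kidney, intestine and lung was higher in each (18.8 to 39.9 CPM and 19.7 to 44.2 CPM), with 1 of that list's 5 at 0 in each. The part of these cells was not tested. The groups in these comparisons differ in the day after injury. These comparisons also share groups with those above, so their counts are not independent of them. With a term for the mitochondrial share 8 members were lower and 2 higher in 1OFF, among 680 and 1168 of all genes. In 2OFF 17 were lower and 2 higher, among 698 and 1202, and in 3OFF 5 and 2, among 240 and 491.

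**Figure D1:**
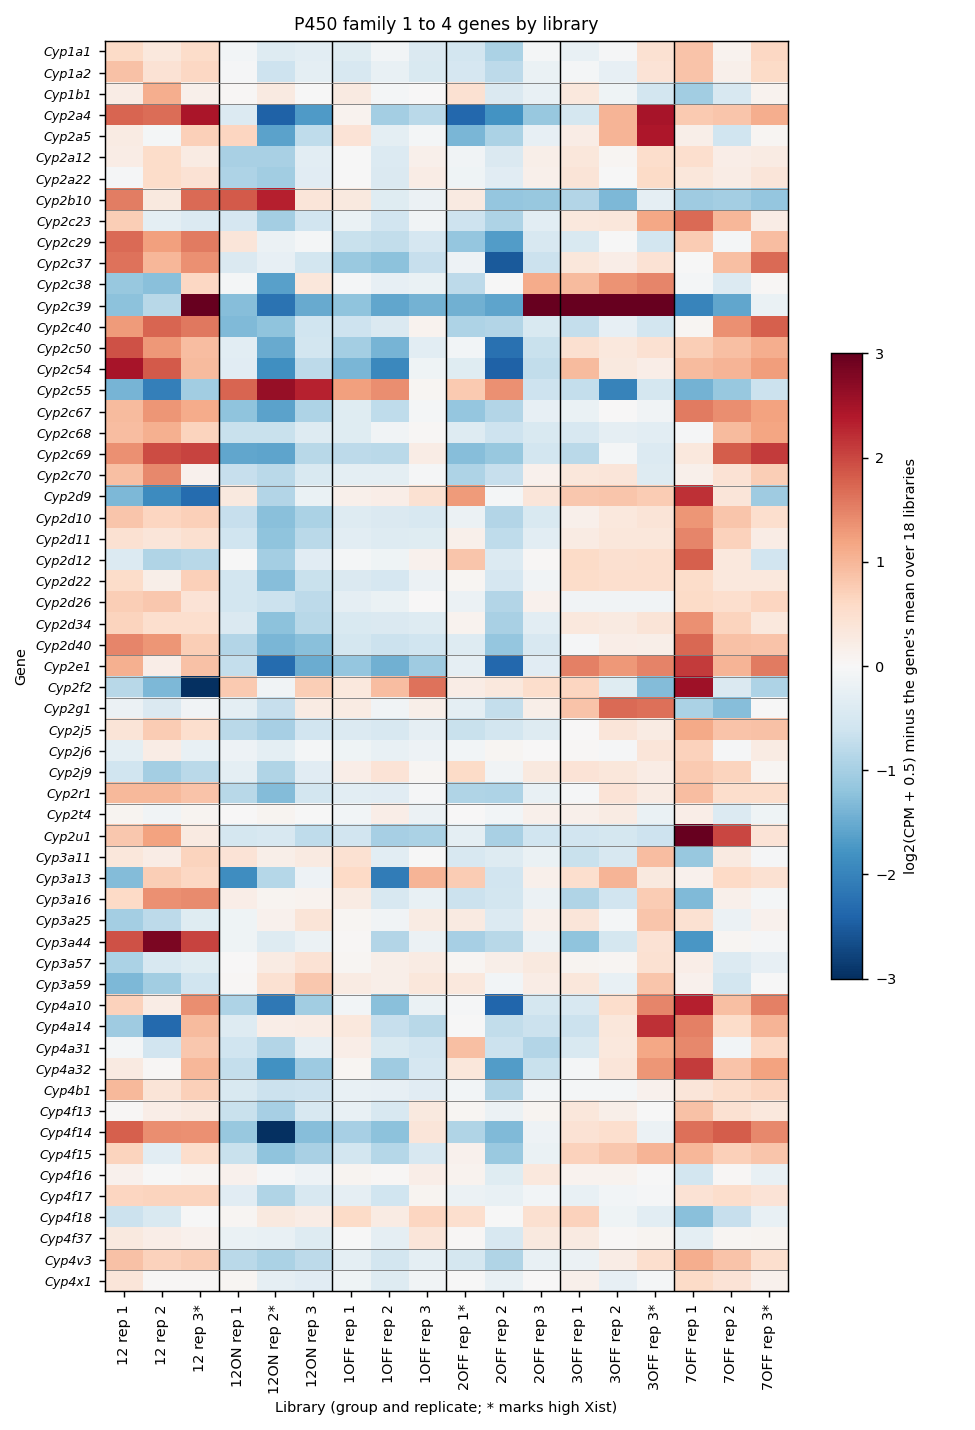
Level of each of the 59 members (rows, by subfamily) in each of the 18 libraries (columns, by group, an asterisk marking high Xist), as log2(CPM + 0.5) minus the gene's mean over 18 libraries, with the colour scale ending at -3 and 3. The 12ON, 1OFF and 2OFF columns are mostly blue (below the gene's mean) and the group 12 and 7OFF columns mostly red, while Cyp2c55 and Cyp2f2 show the reverse in group 12, and Cyp2c39 is dark red in 5 libraries.

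Cyp2e1 (ENSMUSG00000025479, chromosome 7, 140763739 to 140774975, GRCm38) had the highest level per kilobase of all members in group 12, 3OFF and 7OFF. Its promoter, the 250 bases before the RefSeq start on GRCm38.p6 (chr7:140763569-140763818, plus strand), is shown because this gene activates the toxin, and capitals mark a TATA box, the letters TATAAA.
Cyp2e1: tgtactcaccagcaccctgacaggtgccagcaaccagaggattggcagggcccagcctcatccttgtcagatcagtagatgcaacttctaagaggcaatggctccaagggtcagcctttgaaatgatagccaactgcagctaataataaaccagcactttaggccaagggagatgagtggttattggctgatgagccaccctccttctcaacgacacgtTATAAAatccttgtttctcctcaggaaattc
The TATA box begins 31 bases before the start. Cyp2e1 lay at 1656, 908 and 1461 CPM in the 3 livers of group 12, at 485, 160 and 282 CPM in 12ON, at 354, 291 and 376 CPM in 1OFF and at 658, 154 and 621 CPM in 2OFF. In 3OFF the libraries gave 2265, 1953 and 2220.3 CPM, and in 7OFF 3374, 1606 and 2327 CPM. Every 12ON, 1OFF and 2OFF library lay below every library of group 12, and every 3OFF and 7OFF library lay above every 12ON library.

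Cyp2e1 was thus 4.34-fold lower in 12ON than in group 12 (log2 -2.12 ± 0.47, adjusted p = 0.00179), though with the term for the mitochondrial share the value was -1.99 with an adjusted p of 0.0523. Relative to 12ON it was 6.94-fold higher in 3OFF (2.80 ± 0.48, adjusted p = 0.000661) and 7.88-fold higher in 7OFF (2.98 ± 0.49, adjusted p = 0.000182). The differences from 12ON at 1 day (0.14 ± 0.45, adjusted p = 0.927) and at 2 days (0.63 ± 0.45, adjusted p = 0.525) did not pass, and neither did that of 7OFF from group 12 (0.86 ± 0.46, adjusted p = 0.291). At 1 day the difference was -0.17 in the low-Xist libraries alone and -0.18 without 12ON replicate 2. Per kilobase, Cyp2e1 made up 13.5% ± 3.66 of the members' summed level in group 12, 6.91% ± 2.77 in 12ON, 25.5% ± 3.98 in 3OFF and 22.9% ± 4.66 in 7OFF (SD, n = 3).

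**Figure D2:**
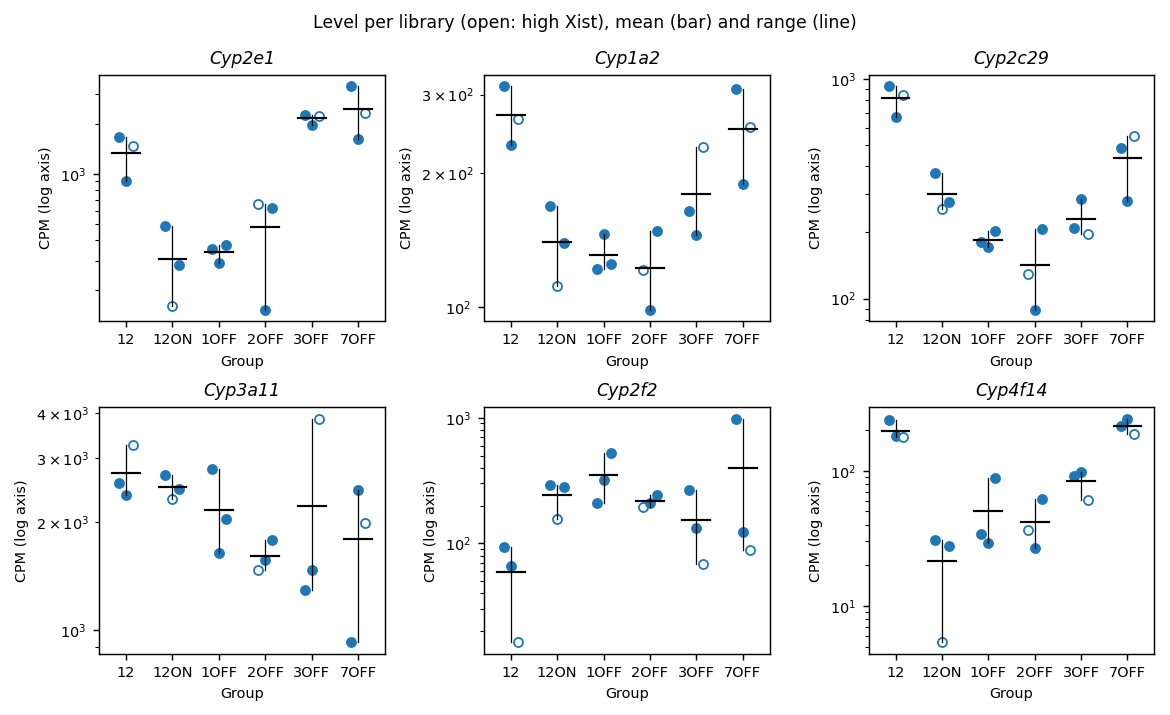
Levels of Cyp2e1, Cyp1a2, Cyp2c29, Cyp3a11, Cyp2f2 and Cyp4f14 (vertical axis, CPM on a log scale) in each library of the 6 groups (horizontal axis), with open points for libraries of high Xist, bars for means and lines for ranges. Cyp2e1 drops from 1342 CPM in group 12 to 309 CPM in 12ON and stands at 2146 CPM in 3OFF, while the ranges of Cyp3a11 in groups 12 and 12ON overlap.

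Of the 3 family 1 members, Cyp1a1 and Cyp1a2, which are induced through the aryl hydrocarbon receptor, were lower in 12ON than in 12 and higher in 7OFF than in 12ON. Cyp1a2, which oxidises aromatic amines, lay at 314, 231 and 265 CPM in group 12, at 168, 111 and 139 CPM in 12ON and at 309, 189 and 254 CPM in 7OFF. It was 1.93-fold lower in 12ON than in group 12 (-0.95 ± 0.22, adjusted p = 0.00206), and 1.80-fold higher in 7OFF than in 12ON (0.84 ± 0.22, adjusted p = 0.0051). In 3OFF it stood at 164, 145 and 229 CPM, which overlapped 12ON (0.36 ± 0.21, adjusted p = 0.21). The call in 7OFF ended in the low-Xist libraries alone (0.70, adjusted p = 0.0581).

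Cyp1a1, an oxidase of polycyclic hydrocarbons, lay at 7.01, 5.74 and 6.89 CPM in group 12, at 4.29, 3.36 and 3.51 CPM in 12ON and at 8.63, 4.89 and 7.23 CPM in 7OFF. The 12ON libraries stood below both other groups (-0.81 ± 0.26 against group 12, adjusted p = 0.017, and 0.89 ± 0.26 for 7OFF against 12ON, adjusted p = 0.0109). The first call ended without 12ON replicate 2 (adjusted p = 0.0599) or 3 (0.0521) and in the low-Xist libraries alone (0.13), and the second without 7OFF replicate 1 (0.0555) and in the low-Xist libraries alone (0.0935). Cyp1b1, which oxidises estradiol and is found largely outside hepatocytes, lay between 0.804 and 5.20 CPM in all libraries, and none of its 10 comparisons was called.

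The Cyp2a genes lie within 729.6 kb of chromosome 7, and among them Cyp2a4 and Cyp2a5 are close in sequence, yet only Cyp2a4 was called lower in 12ON than in 12. Cyp2a4 encodes a testosterone hydroxylase and Cyp2a5 the coumarin hydroxylase of mouse liver. The 250 bases before their RefSeq starts (chr7:26306942-26307191 and chr7:26835089-26835338, both on the plus strand, GRCm38.p6) match at 245 of 251 aligned positions, or 97.6%, and are shown so that they can be compared, with the TATA box in capitals.
Cyp2a4: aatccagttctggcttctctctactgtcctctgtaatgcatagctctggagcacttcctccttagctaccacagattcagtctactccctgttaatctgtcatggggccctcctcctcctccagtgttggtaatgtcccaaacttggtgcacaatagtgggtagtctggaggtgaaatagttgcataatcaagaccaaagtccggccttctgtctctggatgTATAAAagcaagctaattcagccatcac
Cyp2a5: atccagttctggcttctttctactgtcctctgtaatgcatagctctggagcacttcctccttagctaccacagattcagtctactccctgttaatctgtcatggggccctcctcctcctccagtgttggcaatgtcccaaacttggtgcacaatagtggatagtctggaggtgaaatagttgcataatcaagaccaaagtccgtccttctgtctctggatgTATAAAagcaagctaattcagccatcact
Cyp2a4 lay at 278, 265 and 454 CPM in group 12, at 62.7, 15.1 and 25.3 CPM in 12ON and at 144, 149 and 179 CPM in 7OFF. The 12ON libraries were below all of groups 12 and 7OFF (-3.27 ± 0.66 against group 12, adjusted p = 0.00079, with -4.04 without 12ON replicate 1 and -2.63 in the low-Xist libraries alone). In 7OFF it was 4.58-fold above 12ON (2.20 ± 0.63, adjusted p = 0.0103, and 2.94 without 12ON replicate 1).

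Cyp2a5 lay at 179, 145 and 249 CPM in group 12 and at 234, 49.2 and 88.7 CPM in 12ON, where 1 library stood within the range of group 12. Its difference did not pass (-0.62 ± 0.54, adjusted p = 0.367), while without 12ON replicate 1 it did (-1.46, adjusted p = 0.0413). In 3OFF both genes were spread widely, Cyp2a4 at 57.8, 169.6 and 463 CPM and Cyp2a5 at 176, 308 and 816 CPM, with the highest values in replicate 3. Both were called higher than in 12ON there (2.74 ± 0.64, adjusted p = 0.00461, and 1.81 ± 0.56, adjusted p = 0.0218), although the groups overlapped. Without 3OFF replicate 3 the values were 1.73 for Cyp2a4 and 0.97 for Cyp2a5 (adjusted p = 0.182), and Cyp2a5 also lost its call without 12ON replicate 2 (0.0938) or 3 (0.0827) and in a fit of the 2 groups alone (0.0844), whereas without 12ON replicate 1 they were 3.49 and 2.63. In the low-Xist libraries alone neither passed (adjusted p = 0.121 and 0.422). The difference between the 2 genes' changes was not tested, and of their 50-base windows only 61.2% (Cyp2a4) and 63.0% (Cyp2a5) were unique to the gene.

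Cyp2a12 and Cyp2a22 were called in both directions. Cyp2a12, which acts on steroids, lay at 277, 352 and 283 CPM in group 12, at 122, 121 and 190 CPM in 12ON and at 341, 274 and 283 CPM in 7OFF. The 12ON libraries were the lowest 3 of these 9 (-1.07 ± 0.21, adjusted p = 0.000604, and 1.05 ± 0.21 for 7OFF against 12ON, adjusted p = 0.000811). Cyp2a22 changed by -1.09 ± 0.22 and 1.06 ± 0.22 in the same comparisons, with adjusted p = 0.000917 and 0.00128.

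Cyp2b10, the gene commonly used as a readout of the receptor CAR, was the only member of its subfamily above the threshold, at low levels. It reached 1 CPM in libraries of groups 12, 12ON, 1OFF and 2OFF and in none of 3OFF or 7OFF. It thus passed the rule through groups where it was higher, so its lower calls in 3OFF and 7OFF are partly fixed by the rule. It lay at 4.67, 1.70 and 5.28 CPM in group 12, at 5.89, 8.49 and 1.79 CPM in 12ON, at 1.68, 0.903 and 1.08 CPM in 1OFF and at 1.64, 0.303 and 0.313 CPM in 2OFF. In 3OFF it lay at 0.466, 0.209 and 0.976 CPM and in 7OFF at 0.349, 0.383 and 0.305 CPM, all below every library of groups 12 and 12ON. It was lower in 3OFF than in 12ON (-3.33 ± 0.72, adjusted p = 0.00272, and -3.99 without 3OFF replicate 3) and lower in 7OFF (-3.95 ± 0.76, adjusted p = 0.000671, and -3.23 with the term for the mitochondrial share), but 12ON and 12 overlapped (0.47 ± 0.63, adjusted p = 0.565). Against group 12 it was lower in 7OFF as well (-3.48 ± 0.76, adjusted p = 0.0177), a call that ended without 12 replicate 1 (0.0506) or 7OFF replicate 1 (0.0639) or 2 (0.0577).

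The 13 Cyp2c genes, epoxygenases and hydroxylases of fatty acids, retinoids and steroids, lie in 5022.2 kb of chromosome 19 and held the widest range of differences between 12ON and 12, from -4.12 to 4.03. Promoters of the genes at both ends of that range are shown, for Cyp2c55 (chr19:39006769-39007018) and Cyp2c39 (chr19:39510572-39510821), both on the plus strand of GRCm38.p6. The letters TATAAA are in capitals where the window holds them. The Cyp2c39 window ends with the letters tat, and its RefSeq start lies 40 bases before the Ensembl gene start. Whether a TATA box continues past its end was not searched, so the 2 genes cannot be compared on this point.
Cyp2c55: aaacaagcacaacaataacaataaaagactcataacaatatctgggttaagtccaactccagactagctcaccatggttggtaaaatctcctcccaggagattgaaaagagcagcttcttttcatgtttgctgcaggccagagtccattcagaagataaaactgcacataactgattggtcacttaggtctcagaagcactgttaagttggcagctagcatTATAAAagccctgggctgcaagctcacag
Cyp2c39: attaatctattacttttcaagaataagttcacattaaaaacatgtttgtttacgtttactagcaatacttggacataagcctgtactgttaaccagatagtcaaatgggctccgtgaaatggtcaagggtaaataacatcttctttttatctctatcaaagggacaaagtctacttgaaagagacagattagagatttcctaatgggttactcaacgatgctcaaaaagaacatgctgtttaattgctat
Cyp2c55, which is inducible through CAR and PXR, lay at 1.71, 0.899 and 2.30 CPM in group 12 and at 18.8, 34.7 and 28.2 CPM in 12ON. It stood at 13.1, 14.8 and 5.57 CPM in 1OFF, at 9.47, 14.6 and 3.26 CPM in 2OFF, at 3.00, 0.951 and 3.52 CPM in 3OFF and at 1.68, 2.12 and 3.19 CPM in 7OFF. All 12ON libraries were thus above all others. The rise over group 12 was 16.3-fold (4.03 ± 0.60, adjusted p = 6.89e-05, and 2.27 with the term for the mitochondrial share), and relative to 12ON it fell by 3.46 ± 0.57 in 3OFF (adjusted p = 0.000452) and by 3.53 ± 0.57 in 7OFF (adjusted p = 0.000159, and -2.55 with that term). In 1OFF and 2OFF it was above group 12 (2.75 ± 0.58, adjusted p = 0.00208, and 2.45 ± 0.58, adjusted p = 0.00406), calls that ended with the term for the mitochondrial share (0.90 and 0.72, adjusted p = 0.436 and 0.537).

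Cyp2c39, a retinoic acid hydroxylase, had 2 separate levels. In 13 libraries it lay between 2.73 and 12.6 CPM, and in the other 5 between 151 and 214 CPM, namely 12 replicate 3 (214 CPM), 2OFF replicate 3 (184 CPM) and all of 3OFF (151, 165 and 193 CPM). Of these 5, 2 were libraries of high Xist. The low call in 12ON against 12 (-4.12 ± 1.41, adjusted p = 0.0251) rested on 12 replicate 3, without which it was -0.67 with an adjusted p of 0.671, and it ended without any of the 12ON libraries (0.0591 to 0.0852), with a term for Xist (0.0853) or the mitochondrial share (0.0813) and in the low-Xist libraries alone (-0.42, adjusted p = 0.786). The high call in 3OFF against 12ON (5.27 ± 1.48, adjusted p = 0.0133) ended without 12ON replicate 2 (5.01, adjusted p = 0.061), though the groups did not overlap. Its neighbour in sequence Cyp2c38 was highest in 12 replicate 3, 2OFF replicate 3 and 3OFF replicate 3 of their groups, at 49.3, 69.5 and 89.3 CPM. The promoter windows of the 2 genes matched at 198 of 279 aligned positions, or 71.0%, with gaps counted as positions. Their RefSeq starts lie 40 (Cyp2c39) and 0 bases (Cyp2c38) from the Ensembl gene starts, and such an offset between windows adds gaps.

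**Figure D3:**
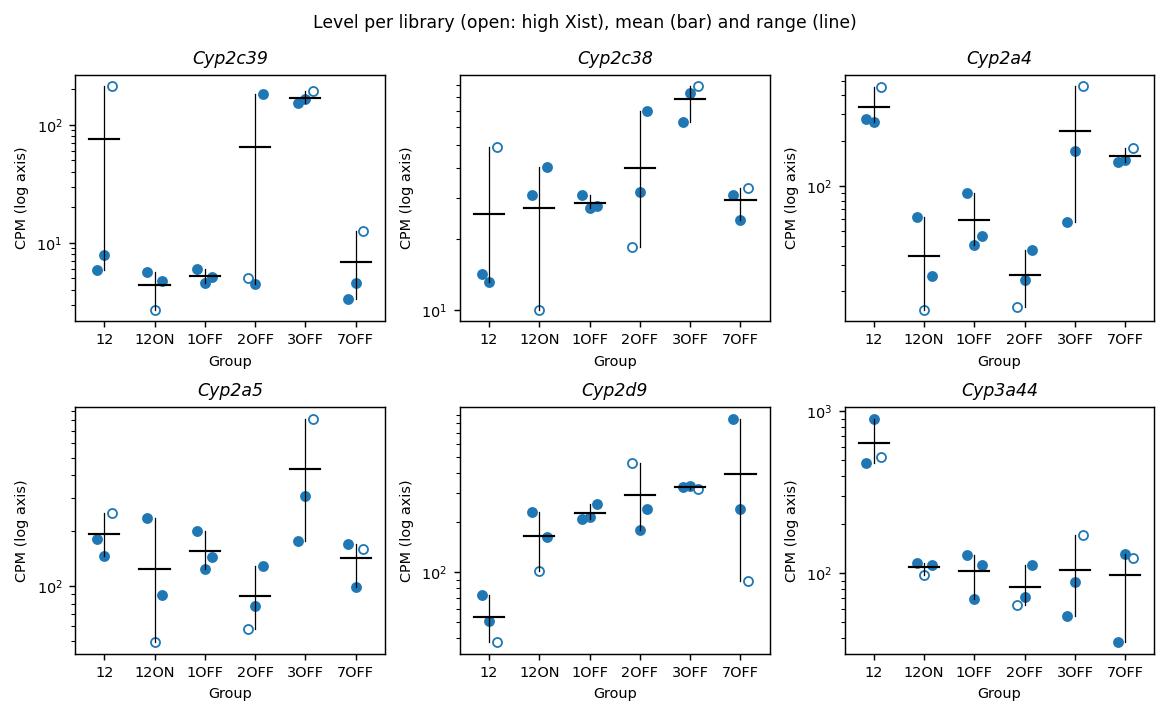
Levels (vertical axis, CPM on a log scale) of 6 members whose replicates lay far apart, Cyp2c39, Cyp2c38, Cyp2a4, Cyp2a5, Cyp2d9 and Cyp3a44, in each library of the 6 groups (horizontal axis), with open points for libraries of high Xist, bars for means and lines for ranges. Cyp2c39 sits above 150 CPM in 5 libraries and below 13 CPM in the rest, and Cyp2d9 in 7OFF runs from 88.6 to 853 CPM.

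Among the other Cyp2c genes, Cyp2c29, an arachidonic acid epoxygenase, lay at 931, 674 and 845 CPM in group 12 and at 372, 255 and 274 CPM in 12ON. It stood at 181, 172 and 204 CPM in 1OFF, at 129, 89.2 and 207 CPM in 2OFF, at 209, 283 and 197 CPM in 3OFF and at 484, 277 and 549 CPM in 7OFF. No library outside group 12 reached the lowest of group 12 (-1.44 ± 0.29 for 12ON against 12, adjusted p = 0.000774). Unlike Cyp2e1, it was not called in 3OFF or 7OFF against 12ON (-0.39 ± 0.28, adjusted p = 0.31, and 0.54 ± 0.28, adjusted p = 0.136), and 3OFF stayed below group 12 (-1.83 ± 0.29, adjusted p = 0.00084). Whether the 2 genes' changes differ was not tested.

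Cyp2c69 lay at 133, 199 and 209 CPM in group 12, at 17.0, 16.7 and 28.3 CPM in 12ON and at 63.4, 179.6 and 219 CPM in 7OFF. The 12ON libraries were clear of both other groups (-3.13 ± 0.43, adjusted p = 3.61e-05, and 2.90 ± 0.42 for 7OFF against 12ON, adjusted p = 7.41e-05). Cyp2c70, which forms muricholic acids from bile acids, lay at 869.8, 1273 and 511 CPM in group 12 and at 288, 265 and 339 CPM in 12ON, again with no overlap (-1.57 ± 0.32, adjusted p = 0.000849, and -1.27 with an adjusted p of 0.0735 with the term for the mitochondrial share). Cyp2c40, Cyp2c67 and Cyp2c69 have much sequence in common with other genes, with 39.7%, 47.2% and 45.7% of their 50-base windows found in no other gene, so their levels are uncertain.

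The Cyp2d genes, relatives of the human drug-metabolising CYP2D6, mostly moved with the rest of the family. Cyp2d10 lay at 514, 448 and 476 CPM in group 12, at 178, 120 and 149 CPM in 12ON and at 719.7, 515 and 413 CPM in 7OFF. The 12ON values were well below both (-1.69 ± 0.20, adjusted p = 1.25e-05, and 1.88 ± 0.21 for 7OFF against 12ON, adjusted p = 7.97e-06). Cyp2d40 had differences of -2.41 ± 0.26 (adjusted p = 4.52e-06) and 2.42 ± 0.26 (adjusted p = 7.31e-06) in those comparisons. In 7OFF against 12ON 7 of the 8 Cyp2d genes were higher, against 21.4% of all genes.

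Of the 2 Cyp2d genes not lower in 12ON than in 12, Cyp2d12 lay at 18.4, 13.0 and 13.5 CPM in group 12 and at 24.3, 11.9 and 19.3 CPM in 12ON, which overlapped (0.31 ± 0.45, adjusted p = 0.594). The other, Cyp2d9, a steroid hydroxylase typical of male liver, was called higher. It lay at 72.8, 50.5 and 37.6 CPM in group 12, at 231, 102 and 164 CPM in 12ON, at 209.9, 215 and 258 CPM in 1OFF and at 458, 181 and 242 CPM in 2OFF. In 3OFF it stood at 330, 332 and 320 CPM and in 7OFF at 853, 242 and 88.6 CPM, the widest range of the 6 groups. Group 12 was below all other libraries (1.63 ± 0.58 for 12ON against 12, adjusted p = 0.03, and 2.88 ± 0.60 for 7OFF against 12, adjusted p = 0.0145). The first call was lost on leaving out 12 replicate 2, 12 replicate 3, 12ON replicate 1 or 12ON replicate 3, with adjusted p between 0.054 and 0.103, and with the term for the mitochondrial share (2.36, adjusted p = 0.054). The second ended in a fit of the 2 groups alone (0.132), without 12 replicate 2 (0.0502) or 3 (0.0515) or without 7OFF replicate 1 (1.63, adjusted p = 0.0654). Against 12ON, 7OFF did not differ to the threshold (1.25 ± 0.57, adjusted p = 0.0865), where the value was -0.00 without 7OFF replicate 1, and 1.73 and called without 7OFF replicate 3. In 4 of the 5 groups with a library of high Xist, that library was the lowest of its group for Cyp2d9, and in 1 the highest.

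Cyp2f2, which epoxidises naphthalene and in liver is found towards the portal vein, lay at 93.7, 66.0 and 16.3 CPM in group 12 and at 289.8, 157 and 283 CPM in 12ON. In 1OFF it stood at 209, 318 and 524 CPM, in 2OFF at 196, 211 and 241 CPM, in 3OFF at 264, 131 and 68.2 CPM and in 7OFF at 985, 124 and 88.0 CPM. The 12ON, 1OFF and 2OFF libraries were all above group 12, while 3OFF and 7OFF overlapped it. The 12ON difference from group 12 passed narrowly (2.06 ± 0.80, adjusted p = 0.0452) and was lost on leaving out 12 replicate 2, 12 replicate 3, 12ON replicate 1 or 12ON replicate 3, with adjusted p between 0.0886 and 0.14. It was also lost in the low-Xist libraries alone (0.0766) and with the term for the mitochondrial share (2.99, adjusted p = 0.0861). Its value in 7OFF against 12 (2.77 ± 0.82, adjusted p = 0.0599) was 0.86 without 7OFF replicate 1 and 3.24, and called, without 7OFF replicate 3.

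Of the members with 1 to 3 genes per subfamily, Cyp2j5, an epoxygenase, lay at 368, 475 and 403 CPM in group 12, at 161, 140 and 190 CPM in 12ON and at 616, 514 and 515 CPM in 7OFF. Groups 12, 12ON and 7OFF were fully apart (-1.34 ± 0.14, adjusted p = 4.32e-06, and 1.74 ± 0.14 for 7OFF against 12ON, adjusted p = 1.35e-06). Cyp2r1, the vitamin D hydroxylase, lay at 18.1, 18 and 16.5 CPM in group 12, at 4.86, 3.34 and 6.0 CPM in 12ON and at 17.4, 13.1 and 13.2 CPM in 7OFF, with 12ON clear of both (-1.88 ± 0.23, adjusted p = 1.15e-05, and 1.61 ± 0.22, adjusted p = 4.87e-05). Cyp2j9 was among the 2 members higher in 7OFF than in group 12 (1.48 ± 0.24, adjusted p = 0.00484), at 10.2, 9.31 and 5.98 CPM against 3.58, 2.57 and 3.04 CPM. Cyp2t4 lay between 1.89 and 3.25 CPM in all libraries and was called in no comparison. Cyp2g1, a P450 of olfactory tissue, was higher in 3OFF, at 2.21, 4.32 and 4.20 CPM, than in 12ON, at 0.720, 0.418 and 1.28 CPM (2.14 ± 0.54, adjusted p = 0.00744), a call that ended in the low-Xist libraries alone (0.0546).

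Cyp2u1, a fatty acid hydroxylase, had its highest values at 7 days. It lay at 8.04, 10.8 and 5.41 CPM in group 12, at 2.88, 3.01 and 2.36 CPM in 12ON, at 2.76, 2.87 and 2.68 CPM in 3OFF and at 42.3, 19.0 and 6.01 CPM in 7OFF. Every 7OFF library was above every 12ON library, and replicate 1 stood highest. The rise over 12ON was 3.02 ± 0.49 (adjusted p = 0.00016, and 2.18 without 7OFF replicate 1). The fall in 12ON against 12 (-1.55 ± 0.47, adjusted p = 0.014) ended without 12 replicate 2 (0.0622) and with the term for the mitochondrial share (-0.93, adjusted p = 0.411).

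The 7 Cyp3a genes, on chromosome 5, held both higher and lower genes in 12ON against 12 and no call against 12ON at 3 or 7 days. Cyp3a11, the main drug-oxidising Cyp3a of mouse liver and a target of PXR, had the highest level per kilobase of all members in 12ON, 1OFF and 2OFF. It lay at 2566, 2372 and 3259.9 CPM in group 12 and at 2705, 2316 and 2470.1 CPM in 12ON. The groups overlapped (-0.13 ± 0.38, adjusted p = 0.802), and the value was 0.07 in the low-Xist libraries alone and 0.02 without 12 replicate 3. In 3OFF it stood at 1293, 1465 and 3869 CPM and in 7OFF at 925, 2448 and 1987 CPM, which overlapped 12ON as well. None of the 7 Cyp3a genes was called in 3OFF or in 7OFF against 12ON.

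Within the subfamily 3 genes were higher in 12ON than in 12 and 2 lower, where 24% and 22.6% of all genes were. Cyp3a59 lay at 13.8, 17.4 and 23.8 CPM in group 12 and at 36.8, 49.8 and 63.3 CPM in 12ON, without overlap (1.44 ± 0.27, adjusted p = 0.000438), and Cyp3a25 (0.85 ± 0.24, adjusted p = 0.00968) and Cyp3a57 (0.94 ± 0.21, adjusted p = 0.00208) rose too. With the term for the mitochondrial share these 3 calls ended (adjusted p = 0.0978, 0.353 and 0.0837). Cyp3a44, which is higher in female liver, lay at 476, 901 and 521 CPM in group 12, at 116, 97.7 and 112 CPM in 12ON and at 37.4, 132 and 124 CPM in 7OFF. It was lower than in group 12 in 12ON (-2.54 ± 0.47, adjusted p = 0.000432) and still at 7 days (-2.69 ± 0.47, adjusted p = 0.00725), although the latter ended in a fit of those 2 groups alone (0.0556). Cyp3a16, at 97.2, 165 and 172 CPM in group 12 and 25.0, 70.8 and 60.9 CPM in 7OFF, was likewise lower in 7OFF (-1.47 ± 0.41, adjusted p = 0.0462), a call that ended without any 1 of the 6 libraries compared (0.0566 to 0.148). Its call in 12ON against 12 (-1.06 ± 0.40, adjusted p = 0.0419) was lost on leaving out 12 replicate 2, 12 replicate 3 or any 12ON library (0.0813 to 0.118). Both calls of Cyp3a16 also ended in the low-Xist libraries alone and with the term for the mitochondrial share (adjusted p from 0.06 to 0.122). Cyp3a members made up 19.1% ± 3.05 of the members' level per kilobase in group 12, 31.0% ± 3.70 in 12ON and 10.7% ± 4.61 in 7OFF (SD, n = 3). These shares and the counts above leave out Cyp3a41a and Cyp3a41b, whose symbols fall outside the rule. They reached 1446 and 1343 CPM in their highest libraries, and both were called lower in 12ON than in 12.

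**Figure D4:**
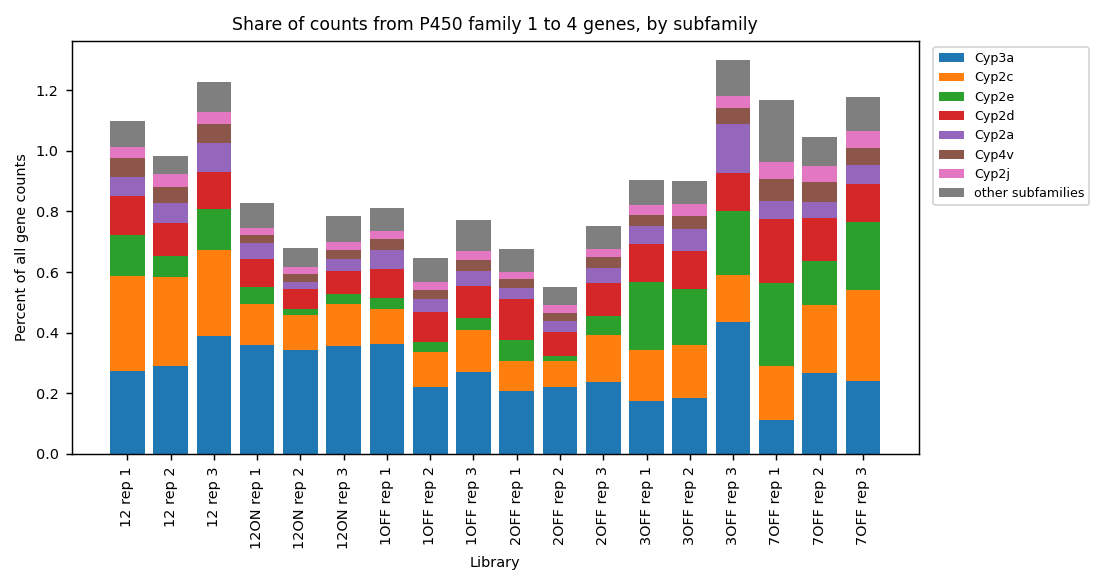
Share of all gene counts (vertical axis, percent) that came from the 59 members in each of the 18 libraries (horizontal axis), stacked by subfamily, with the 12 smaller subfamilies joined. The total runs from 0.552% in a 2OFF library to 1.30% in a 3OFF library, and the Cyp2e part is largest in the 3OFF and 7OFF libraries.

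In family 4, which acts on fatty acids and eicosanoids, 8 of 14 genes were lower in 12ON than in 12, against 22.6% of all genes. In 7OFF 10 were higher and 1 lower than in 12ON, against 21.4% and 22.7%. Cyp4f14, a leukotriene hydroxylase, lay at 236, 179.9 and 177 CPM in group 12, at 30.8, 5.39 and 28.0 CPM in 12ON, at 92.2, 97.6 and 60.6 CPM in 3OFF and at 216, 243 and 187 CPM in 7OFF. Group 12 and 7OFF overlapped, and 12ON lay below 3OFF, which lay below both. The difference was -3.21 ± 0.55 in 12ON against 12 (adjusted p = 0.000221, and -2.23 with the term for the mitochondrial share) and 3.33 ± 0.55 in 7OFF against 12ON (adjusted p = 0.000192). In 3OFF against 12ON it was 1.96 ± 0.52 (adjusted p = 0.00984), and ended in the low-Xist libraries alone (0.0516). Cyp4f18, another leukotriene hydroxylase, was the family 4 member lower in 7OFF, at 0.769, 1.40 and 2.09 CPM, than in 12ON, at 2.68, 3.25 and 3.06 CPM (-1.06 ± 0.34, adjusted p = 0.021). That call ended without 12ON replicate 2 (0.0579) or 7OFF replicate 1 (0.0859) or 2 (0.0575) and with the term for the mitochondrial share (0.112).

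Cyp4a10 and Cyp4a14, hydroxylases that respond to the fatty acid receptor PPARA, had different calls, although the difference between the genes was not tested. Cyp4a10 lay at 110, 80.4 and 181 CPM in group 12, at 35.9, 15.2 and 33.0 CPM in 12ON, at 48.8, 99.4 and 188 CPM in 3OFF and at 345, 128 and 197 CPM in 7OFF. Among these 4 groups the 12ON libraries were the lowest (-2.14 ± 0.60 against 12, adjusted p = 0.00875, and 2.99 ± 0.62 for 7OFF against 12ON, adjusted p = 0.00124). The first call ended in the low-Xist libraries alone (0.0952) and with the term for the mitochondrial share (0.125). The rise in 3OFF (2.00 ± 0.60, adjusted p = 0.0192) ended without 12ON replicate 2 (0.0899), without 3OFF replicate 3 (1.40, adjusted p = 0.107) and in the low-Xist libraries alone (1.11, adjusted p = 0.264). Cyp4a14 lay at 46.5, 19.1 and 189.8 CPM in group 12, at 75.1, 113 and 116 CPM in 12ON and at 282, 144 and 199.8 CPM in 7OFF, where the range of group 12 took in 12ON, and it was called in none of the 10 comparisons (0.25 ± 0.71 for 12ON against 12, adjusted p = 0.799).

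Cyp4v3, a fatty acid hydroxylase, was chosen for display because it and Cyp2j6 were the 2 of the 47 members with a promoter to search that had an E-box there, the letters CACGTG that MYC can bind. The promoter of Cyp4v3 (chr8:45333164-45333413, minus strand, GRCm38.p6) has the E-box in capitals, 171 bases before the start.
Cyp4v3: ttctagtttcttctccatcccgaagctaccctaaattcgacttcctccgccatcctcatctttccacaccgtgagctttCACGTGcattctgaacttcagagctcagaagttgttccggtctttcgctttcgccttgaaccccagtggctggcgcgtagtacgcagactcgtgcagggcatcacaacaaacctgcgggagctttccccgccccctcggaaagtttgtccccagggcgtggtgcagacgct
Cyp4v3 lay at 756, 671 and 699 CPM in group 12, at 234, 214 and 239.6 CPM in 12ON and at 885, 744 and 589.8 CPM in 7OFF, with 12ON apart from both (-1.63 ± 0.20, adjusted p = 1.14e-05, and 1.69 ± 0.20, adjusted p = 1.21e-05). Cyp2j6 was not called in 12ON against 12 (-0.09 ± 0.17, adjusted p = 0.686).

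**Figure D5:**
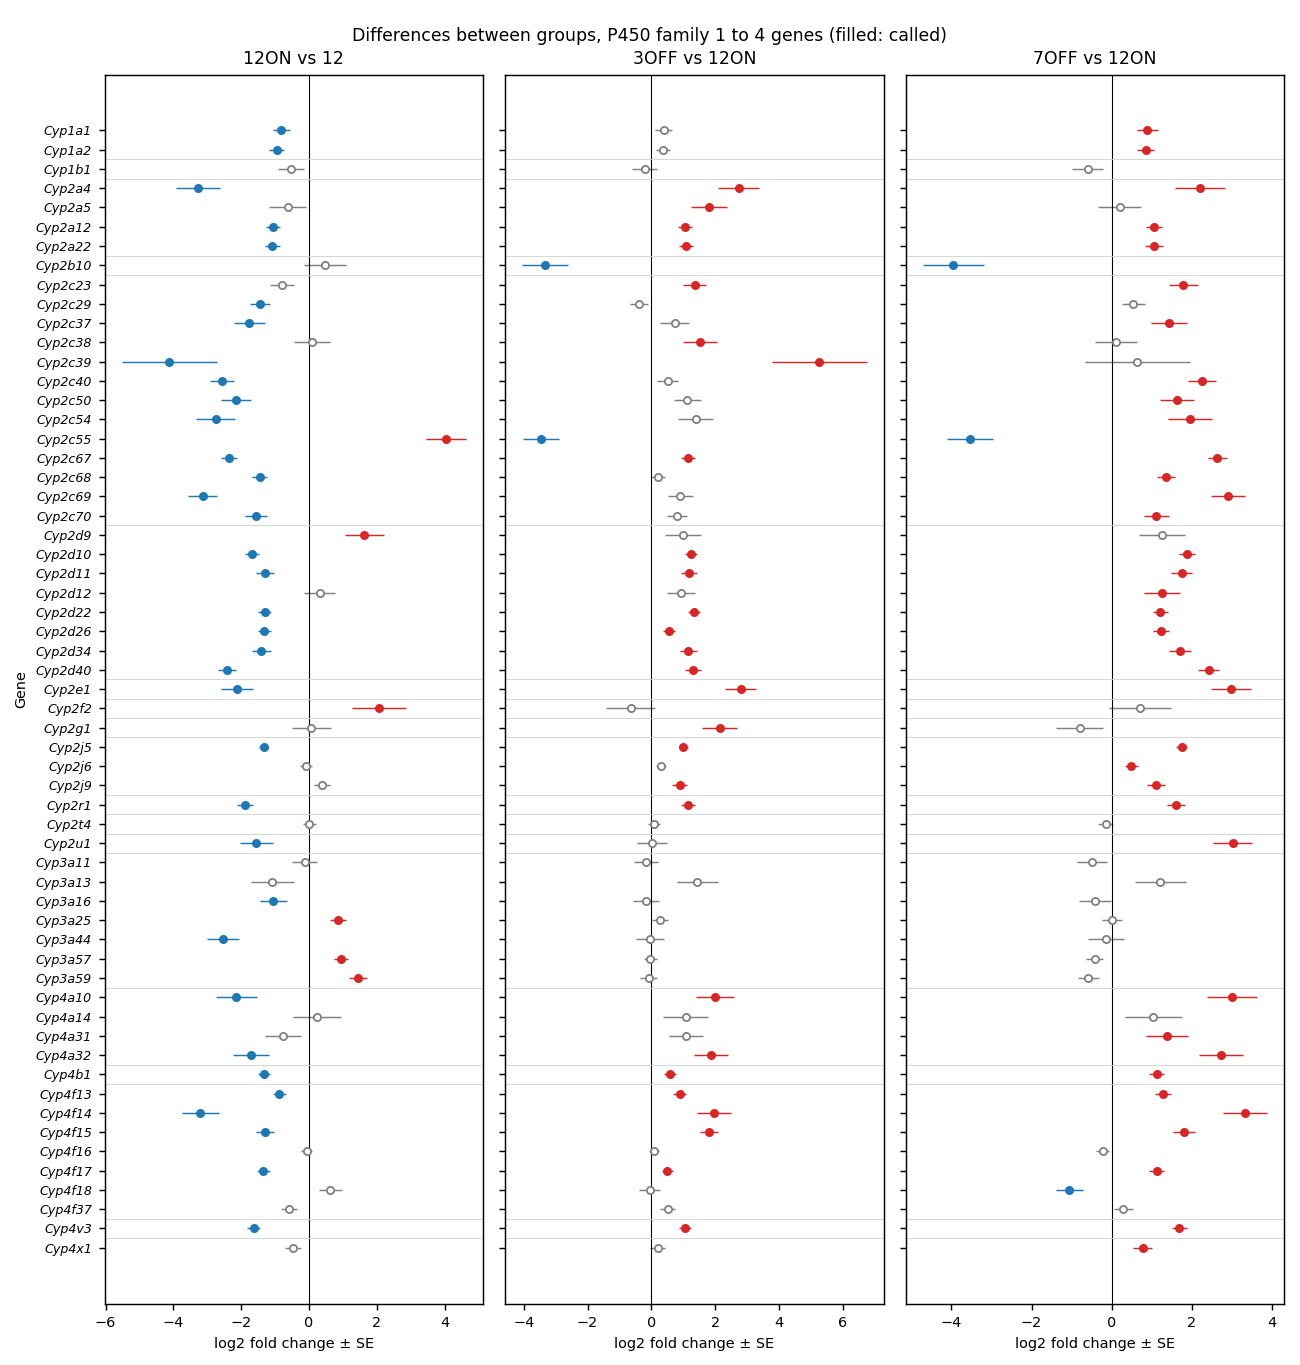
Log2 fold change with its standard error (horizontal axes) of each of the 59 members (vertical axis, by subfamily) in 12ON against 12, 3OFF against 12ON and 7OFF against 12ON, filled red where called higher, filled blue where called lower and open where not called. The left panel has 35 blue points and 6 red, the middle 27 red and 2 blue, and the right 37 red and 3 blue, and all 7 Cyp3a points are open in the middle and right panels.

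Promoters of 47 members were found in RefSeq's table for GRCm38.p6. The 250 bases before the start held TATAAA on either strand in 22 of 47 members (46.8%), against 12.37% of 32851 promoters of the same length, and CACGTG in 2 of 47 (4.3%), against 6.02%. The core that binds the aryl hydrocarbon receptor, GCGTG, was in 7 of 47 (14.9%), against 28.16%. The full HNF1 palindrome and the DR1 element of nuclear receptors were in none of the 47, against 0.01% and 0.03% of all promoters. Both strands were searched, and overlaps were allowed. These are matches of letters in a short window, not sites of binding.

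Of the 35 members lower in 12ON than in 12, 22 were higher in 3OFF than in 12ON and 31 higher in 7OFF than in 12ON, and 2 were lower in 7OFF than in 12, Cyp3a16 and Cyp3a44. Of the 4029 genes of any kind lower in 12ON than in 12, 51.6%, 69.8% and 9.53% had those calls. These comparisons share 12ON or group 12, so genes chosen as low in 12ON were set against the same libraries again. Of the 6 that were higher in 12ON, 1 was lower in 7OFF than in 12ON, Cyp2c55, and 1 was higher in 7OFF than in 12, Cyp2d9. Of all genes tested, 22.7% and 2.47% had those calls. The genes of any kind that were higher in 12ON were not followed, so these 6 have no matching share.

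The partners of the P450 enzymes moved in part with them. In 12ON against 12, 22.6% of all genes tested were lower and 24% higher. In 7OFF against 12ON, 21.4% were higher and 22.7% lower. A list of 5 genes held P450 reductase, other genes of electron transfer and the heme-binding partner Pgrmc1. Of these 5, 3 were lower in 12ON than in 12 and 3 higher in 7OFF than in 12ON (median -0.48 and 0.52). Among them were Pgrmc1 (-1.10 ± 0.15, adjusted p = 3.45e-05, and 0.95 ± 0.15, adjusted p = 0.000135) and Cyb5a, cytochrome b5 (-0.74 ± 0.13, adjusted p = 0.000221). Por, the reductase itself, lay at 294, 200.5 and 386 CPM in group 12 and 332, 314 and 284 CPM in 12ON, which overlapped (0.08 ± 0.32, adjusted p = 0.856). Of 12 genes of heme synthesis and breakdown, 6 were lower in 12ON and none higher (median -0.36), with Alad at -0.72 ± 0.12 (adjusted p = 0.000238) and Urod at -0.51 ± 0.09 (adjusted p = 0.000313), and in 7OFF against 12ON 5 were higher and 1 lower. Alas1, the rate-limiting enzyme of heme synthesis, was not called in 12ON against 12 (0.26 ± 0.40, adjusted p = 0.619).

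Among 15 nuclear receptors and other factors that regulate P450 genes, 9 were lower and 1 higher in 12ON than in 12 (median -0.51). The shares of all genes were 22.6% and 24%. In 7OFF 9 were higher than in 12ON (median 0.61), against 21.4% of all genes. Ppara lay at 73.9, 91.7 and 104 CPM in group 12, at 39.5, 32.4 and 42.0 CPM in 12ON and at 147, 83.4 and 73.2 CPM in 7OFF, with 12ON below both other groups (-1.24 ± 0.24, adjusted p = 0.000592, and 1.42 ± 0.24, adjusted p = 0.000244). Hnf4a, a main factor of hepatocyte genes, was lower in 12ON than in 12 (-0.78 ± 0.13, adjusted p = 0.000179) and higher in 7OFF than in 12ON (0.81 ± 0.13, adjusted p = 0.000148). Nr1i3, which encodes CAR, lay at 87.8, 71.0 and 76.9 CPM in group 12 and 81.3, 62.6 and 66.5 CPM in 12ON and was not called (-0.16 ± 0.21, adjusted p = 0.554).

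Of 13 tested P450 genes of families 5 and above, 6 were lower and 1 higher in 12ON than in 12 (median -1.26), and 5 were higher and 3 lower in 7OFF than in 12ON. Cyp51 of cholesterol synthesis (-1.57 ± 0.24, adjusted p = 8.69e-05) and Cyp27a1 of bile acid synthesis (-1.26 ± 0.22, adjusted p = 0.000248) were among the lower. Of 8 members of the perivenous zone, 6 were lower in 12ON than in 12 and 5 higher in 7OFF than in 12ON, and of 14 that respond to CAR, PXR, AHR or PPARA, 6 were lower and 2 higher in 12ON, and 6 higher and 2 lower in 7OFF. Of all genes, 22.6% were lower and 24% higher in the first comparison, and 21.4% higher and 22.7% lower in the second.

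Lists of P450 genes that differ between male and female liver were followed because Xist differed between libraries. Groups 12, 12ON, 2OFF, 3OFF and 7OFF each held 1 library of high Xist, and 1OFF held none. Of 9 tested genes higher in females, 8 were lower in 12ON than in 12 (median -2.93), 3 were higher in 7OFF than in 12ON, and 4 were lower in 7OFF than in 12. The shares of all genes with those calls were 22.6%, 21.4% and 3.31%. Of 4 genes higher in males, Cyp2d9 was higher and Cyp7b1 lower in 12ON than in 12, where 24% and 22.6% of all genes were. The shares of all genes higher in 7OFF were 21.4% against 12ON and 2.47% against group 12. Cyp7b1, Cyp4a12a and Cyp4a12b were higher in 7OFF than in 12ON, and Cyp2d9, Cyp4a12a and Cyp4a12b were higher in 7OFF than in 12, where the calls of Cyp4a12a and Cyp4a12b ended without 7OFF replicate 1 (adjusted p = 0.4 and 0.444) or without any 1 library of group 12 (0.0698 to 0.113), and in the low-Xist libraries alone (0.0651 and 0.0609) and a fit of the 2 groups alone (0.192 and 0.194). Among them Cyp7b1 was the lowest of its group in the high-Xist library in all 5 groups that have one, and Cyp4a12a and Cyp4a12b in 4 of 5. For the female genes that library was the highest in 3 of 5 groups for Cyp2a4 and Cyp4a14 and in 2 for Cyp2c69 and Cyp3a16. It was the highest in 1 for Cyp2c40, Cyp3a44 and Cyp17a1 and in 0 for Cyp3a41a and Cyp3a41b. It was the lowest in 2 groups for each female gene except Cyp2c40 (1) and Cyp4a14 (0). Cyp4a12a lay at 138, 2.19 and 0.469 CPM in 7OFF and at 3.51, 0.330 and 1.08 CPM in 12ON, and its call between them (4.81 ± 1.53, adjusted p = 0.0187) rested on 7OFF replicate 1, without which it was -0.31. It also ended without 12ON replicate 2 (0.0721) or 3 (0.0658), in a fit of the 2 groups alone (0.0896) and with the term for the mitochondrial share (3.13, adjusted p = 0.296).

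Multi-mapped reads are missing from these counts, so members with close relatives are measured by the bases that differ. Over the members' transcripts in GENCODE M21, a median of 91.3% of 50-base windows occurred in no other gene, with 20 members at 95% or more and 3 under 50%. Cyp2e1 (96.1%) and Cyp3a11 (93.3%) were among those little affected.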

How the data were processed

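Poly-A RNA of 18 livers was sequenced as single 50-base reads. The deposited values are raw counts per gene, obtained by featureCounts 1.5.0-p1 from exons annotated in Ensembl release 82 (GRCm38), per the file headers, without regard to strand, with multi-mapped reads left out and with a read counted for each gene it overlapped by at least 10 bases. Trim Galore, TopHat2 and mm10 are named in the submitters' processing notes without versions. From these counts, TMM-normalised CPM, levels per kilobase and differences were computed in R 4.3.3. edgeR 4.0.16 fitted all 18 libraries together, with a minimum count of 10 in its filter, a two-sided quasi-likelihood test and Benjamini-Hochberg adjustment over 17789 genes at 0.05. The 12 residual degrees of freedom are shared by all groups, and the design text gives 3 mice per group.

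When tested on simulated data, the fit found 2-fold changes in 76% of 50 genes in 12ON against 12 (17617 genes) and 66% in 7OFF against 12ON (17581 genes). Libraries of a group differed far beyond sampling noise (chi-square per gene from 33.9 to 310), so that none is a repeat. Members and gene lists were chosen with earlier results of these data known. Every member could be named. Values by library were planned for members of known role and for the 4 highest and 4 lowest called differences of each main comparison. For several of these they are printed for some of the groups only. Other genes shown were chosen after their values were seen. DESeq2 1.42.0, other scalings and filters, terms for Xist and for the mitochondrial share, low-Xist libraries alone, and leaving out each library were tried as alternatives. At 1 CPM the shallowest library holds about 23.1 counts, so members below that level carry the most counting error, and for the others the spread between mice limits the precision.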

Additional observations from a re-analysis of the deposited data

How the results depend on the processing

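The counts of members called were within 1.5 times their value under RLE and upper-quartile scaling and without the filter on low counts. Other settings moved some, and the cause was not tested. With the term for the mitochondrial share, 1 member was higher and 23 lower in 12ON against 12, among 2327 and 1788 of all genes. There 24 of 41 calls were kept and 0 reversed. Against group 12, 2 were higher and 8 lower in 1OFF, among 1168 and 680 of all genes. The numbers were 2 and 17 in 2OFF, among 1202 and 698, and 2 and 5 in 3OFF, among 491 and 240. In 7OFF against 1OFF 1 was lower, among 1897. In the low-Xist libraries alone 15 members were higher in 3OFF against 12ON, among 763 of all genes, and 5 higher in 7OFF against 12, among 239. There 4 were lower in 7OFF against 1OFF, among 2555. A term for Xist gave 5 higher in 7OFF against 12, among 450. DESeq2 called 2 higher and 1 lower in 1OFF against 12ON, among 125 and 389 of all genes, and 4 and 2 in 2OFF against 12ON, among 272 and 651. In 7OFF against 12 it called 7 and 5, among 730 and 932. A fit of those 2 groups alone gave 1 and 1, among 45 and 171. With 5 CPM as the limit for members, 51 remained in the rule, and 1 was lower in each of 3OFF against 12ON, 7OFF against 12ON and 7OFF against 1OFF.

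Replicate numbers did not pair the libraries, since 10 of 30 same-numbered pairs deviated together with a correlation above 0.1 and no comparison had all 3. With the replicate block, 40 of 41 calls in 12ON against 12 were kept, the other being Cyp2c39 (-2.64, adjusted p = 0.0735 by edgeR). That block gave 1 member higher and 2 lower in 2OFF against 12ON, among 93 and 346 of all genes. In 7OFF against 12 it gave 5 higher, among 427.

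Leaving out each library in turn gave 4 to 6 members higher and 31 to 35 lower in 12ON against 12, and 32 to 38 higher and 2 to 4 lower in 7OFF against 12ON. It gave 17 to 26 higher and 2 lower in 3OFF against 12ON, with 17 without 12ON replicate 2, among 1528 of all genes. In 2OFF against 12ON it gave 0 to 7 higher and 0 to 1 lower. The 7 and 1 came without 2OFF replicate 2, among 520 and 985 of all genes, which were 0 and 0 with every library. Against group 12 it gave 5 to 8 higher and 26 to 29 lower in 1OFF, 5 to 8 and 24 to 32 in 2OFF, 5 to 9 and 9 to 14 in 3OFF, and 1 to 6 and 1 to 3 in 7OFF. For 7OFF against 1OFF it gave 24 to 32 higher and 2 to 3 lower.

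Single genes changed sign as follows. Cyp3a11 in 12ON against 12 was 0.067 in the low-Xist libraries alone and ran from -0.22 to 0.016 with a library left out. Cyp2e1 in 1OFF against 12ON was -0.17 in the low-Xist libraries alone and ran from -0.18 to 0.61. Cyp2d9 in 7OFF against 12ON ran from -0.0025 to 1.73. Without 7OFF replicate 1, Cyp4a12a and Cyp4a12b in 7OFF against 12ON were -0.31 and -0.90, with highest values of 5.99 and 5.40, and Cyp4a12b in 7OFF against 1OFF was -0.20, with a highest value of 5.76.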
